A study of Mus musculus with 147 samples.

Results

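The genes described here are 10 components of the Notch pathway in the developing mouse testis. They are the receptors *Notch1*, *Notch2*, *Notch3* and *Notch4*, the ligands *Jag1* and *Jag2*, the DNA-binding partner *Rbpj*, and the target genes *Hes1*, *Hey1* and *Heyl*. They were taken by name from the 31053 genes of the count table, and all 10 passed the filter on low counts in both fits below. The study asked which signals accompany the passage of male primordial germ cells (PGCs) from mitosis to mitotic arrest, and *Hes1* is a gene that it singled out in these samples, so its direction in germ cells is not independent evidence.

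In Notch signalling, a ligand on one cell binds a receptor on its neighbour. The receptor is then cut by proteases, and its intracellular part enters the nucleus, where it joins RBPJ and turns on transcription. *Hes1*, *Hey1* and *Heyl*, which code for basic helix-loop-helix repressors, are widely used readouts of the pathway. In the fetal testis Notch is best known for holding back interstitial progenitors from becoming Leydig cells, and in the postnatal testis for signals between germ cells and Sertoli cells.

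On mm10 (GENCODE M21) the receptor genes lie at chr2:26457903-26516663 (*Notch1*, minus strand), chr3:98013527-98150361 (*Notch2*, plus), chr17:32120820-32166852 (*Notch3*, minus) and chr17:34564268-34588503 (*Notch4*, plus). The ligand genes lie at chr2:137081456-137116644 (*Jag1*, minus) and chr12:112907819-112929776 (*Jag2*, minus). *Rbpj* lies at chr5:53466152-53657362 (plus). The target genes lie at chr16:30064384-30067796 (*Hes1*, plus), chr3:8663359-8667256 (*Hey1*, minus) and chr4:123233556-123249875 (*Heyl*, plus). The spans cover whole genes with their introns, and transcripts were counted from their 3′ ends.

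All cells used here were wild-type offspring of C57BL/6 females and BVSC males, which carry *Blimp1*-mVenus and *Stella*-ECFP reporters, so both gates below share the same cross. From E11.5 to E18.5, male gonads were split by sorting into BVSC cells (fluorescent, the germ cell gate) and Negative cells (without fluorescence), and from E14.5 on the germ cells were collected by *Stella*-ECFP. From PND0 to PND14, cells of germ cell shape were picked by hand, partly after a sort on DNA content at PND14. Each time-point had 2 biological replicates, and the cells of one time-point and replicate are called a pool. At E13.5 to E16.5 gonads were divided into proximal, central and distal parts, which are joined in a pool. Transcripts were counted by unique molecular identifiers (UMIs), and a level below is the number of UMIs of a gene in every 1000000 UMIs (CPM), summed over the cells of a pool and group. There were 1331 BVSC and 572 Negative cells in 16 pools and 4788 postnatal cells in 24 pools. Sums held 20701229 to 32104931 UMIs for BVSC cells and 2457656 to 14846785 for Negative cells, so that values of the Negative gate are the less precise. Whether the replicates came from separate litters is not given in the sources used here, and p-values measure the spread between these pools. The paper's supplement lists several embryos or gonads per replicate at E11.5, fewer toward E18.5, and a single gonad after birth. The spread between pools therefore does not mean the same before and after birth.

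The gates were checked with marker genes, none of them a Notch gene. Of the BVSC cells, 95.8 to 100% had a germ cell profile in 14 of 16 pools. The exceptions were E17.5 replicate 1 (65.3%, with 23 of 72 cells of a somatic profile) and E18.5 replicate 2 (53.5%, with 3 somatic profiles of 71 cells). *Ddx4* and *Dazl*, which code for germ cell RNA-binding proteins, averaged 377 ± 102.7 and 580 ± 155 CPM in BVSC cells and 25.8 ± 18.9 and 44.7 ± 38.5 CPM in Negative cells (SD, n = 16). *Mki67*, a marker of cycling cells, averaged 234 ± 36.3 CPM in BVSC cells at E11.5 to E12.5 (n = 4) and 26.1 ± 21.5 CPM at E16.5 to E18.5 (n = 6). Negative cells were mostly interstitial-like (278 of 572) and Sertoli-like, with 39 Leydig-like, 6 endothelial-like, 11 blood, 9 germ-marker and 97 unclassed cells. Their makeup was uneven, with 8.33 to 97.9% of interstitial-like and 0 to 69.6% of Sertoli-like cells per pool.

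Across E11.5 to E18.5, most Notch receptors, *Jag1* and the targets *Hes1* and *Heyl* were lower in BVSC cells than in the somatic gate, while *Hey1* was higher. edgeR's quasi-likelihood test with Benjamini-Hochberg adjustment called 7 of the 10 genes, 1 higher and 6 lower, where 47.2% of the 23322 genes tested were called (24.2% higher and 22.9% lower). The median log2 difference was -1.18 over the 10 genes and 0.54 over all genes.

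*Heyl* showed the widest gap. It ranged from 0 to 12.4 CPM in the 16 BVSC pools with a median of 1.71, and from 0.252 to 186 CPM in Negative pools with a median of 61.4. From E13.5 on, the lowest Negative pool (23.1 CPM) lay above the highest BVSC pool (12.4 CPM, E17.5 replicate 1, one of the pools with somatic profiles). The log2 difference was -5.57 ± 0.428 (adjusted p = 2.26e-11). Both BVSC pools of E11.5 were at 0, so this value depends on the count added before taking logs, and it was -5.33 with one gate effect over all time-points, an alternative chosen after seeing the data.

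*Hes1* ran from 10.6 to 166 CPM in BVSC pools with a median of 93.6, and from 97.1 to 500 CPM in Negative pools with a median of 282. The log2 difference was -2.13 ± 0.167 (adjusted p = 1.90e-11). *Hey1* took the opposite side, with 12.7 to 150 CPM in BVSC pools (median 34.6) and 1.298 to 67.7 CPM in Negative pools (median 20.4), a log2 difference of 1.03 ± 0.279 (adjusted p = 0.00281).

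Of the receptors, *Notch2* separated the gates with little overlap. It lay between 10.2 and 35.3 CPM in BVSC pools (median 15.7) and between 31.2 and 104.1 CPM in Negative pools (median 64), with a log2 difference of -2.15 ± 0.171 (adjusted p = 2.61e-11). *Notch3* was lower in BVSC cells by a log2 difference of -1.22 ± 0.252 (adjusted p = 0.000186), with medians of 10.9 and 28.1 CPM. *Notch1* was lower by -1.15 ± 0.295 (adjusted p = 0.00177), but this call was lost without E12.5 replicate 2, where the value was -0.46 (adjusted p = 0.327). The averages hide a crossing in time of *Notch1*, described below. *Notch4* was low in both gates, with medians of 3.33 and 2.56 CPM and a log2 difference of 0.00 ± 0.568.

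The ligands divided between the gates. *Jag1*, a ligand of endothelial and stromal cells, was lower in BVSC cells (log2 difference -2.37 ± 0.345, adjusted p = 1.47e-06), with medians of 4.85 and 26 CPM. *Jag2* had a log2 difference of 0.80 ± 0.541 that did not pass the test (adjusted p = 0.276). With the pool as a block, which pairs the gates of the same time-point and replicate, *Jag2* was higher in BVSC cells by 1.40 ± 0.546 (adjusted p = 0.0244). It was also called higher without E11.5 replicate 1, where the value was 2.30, or without E15.5 replicate 1. *Rbpj* differed by 0.06 ± 0.148, with medians of 56.5 and 49.2 CPM.

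**Figure D1:**
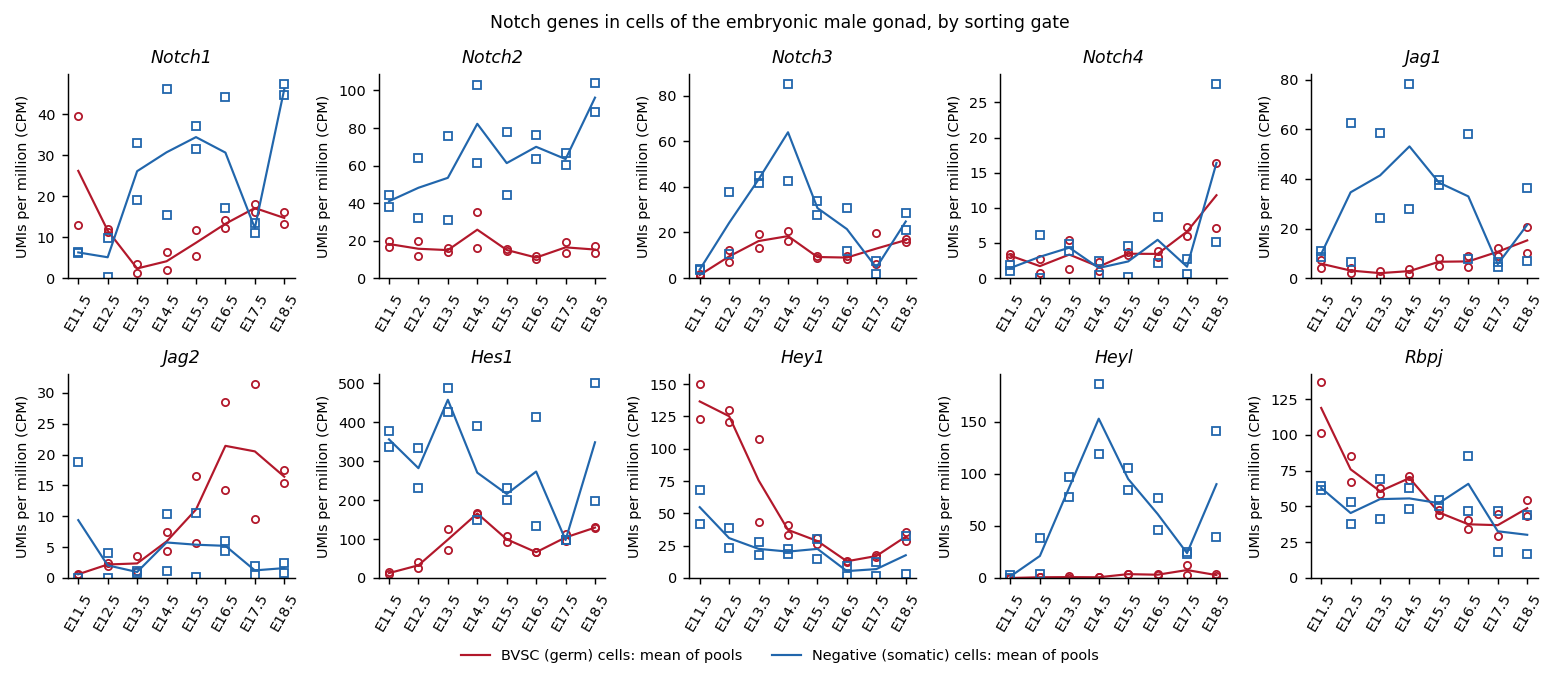
Levels of the 10 Notch genes in CPM (y axes start at 0 and differ between panels) at E11.5 to E18.5 in BVSC cells (red circles) and Negative cells (blue squares), 1 point per pool and a line through the mean of the 2 pools. *Hes1* in BVSC cells climbs from 10.6 and 14.54 CPM at E11.5 to 165 and 166 CPM at E14.5, while *Hey1* falls from 150 and 122.7 CPM to 40.8 and 33.6 CPM.

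As germ cells entered arrest, the target genes of the pathway moved apart. Between E11.5 to E12.5 and E14.5 to E15.5 in BVSC cells, *Hes1*, *Heyl* and *Notch3* rose, and *Hey1*, *Notch1* and *Rbpj* fell. The change to sorting by *Stella*-ECFP alone falls between these periods, and gonads were divided into parts in the later period only. Neither can be told apart from time, here or in the test of the difference between the gates below. The test called 6 of the 10 genes, 3 in each direction, against 23.2% of all genes (14.4% higher and 8.87% lower). The median log2 change was -0.06 over the 10 genes and 0.25 over all genes. Over the same interval *Mki67* fell by 2.20 ± 0.389 on the log2 scale (adjusted p = 0.000187), and *Nanos2*, a germ cell factor of the male arrest, went from 0 in the 4 early pools to between 38.8 and 95.7 CPM.

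*Hes1* stood at 10.6 and 14.54 CPM at E11.5, 24.4 and 40.8 CPM at E12.5, 125.98 and 71 CPM at E13.5, 165 and 166 CPM at E14.5, and 92.1 and 106.6 CPM at E15.5. The 4 early and the 4 later pools did not overlap, and the log2 change was 2.47 ± 0.338 (adjusted p = 9.00e-06), a 5.56-fold rise. In cells kept by their markers it was 2.48 ± 0.368 (adjusted p = 1.75e-05). Summed interstitial markers were 3.68 to 17.9 CPM in the early and 5.73 to 51.7 CPM in the later BVSC pools, against 344 to 5080 CPM in Negative pools. From the early to the later BVSC pools the summed Leydig markers went from between 2.85 and 24.7 to between 4.42 and 129.96 CPM, and the Sertoli markers from between 22.8 and 45.7 to between 35.5 and 104.4 CPM. In Negative pools the Leydig markers ran from 1.71 to 1253 CPM and the Sertoli markers from 226 to 2783 CPM. Endothelial markers went from between 76.5 and 82.6 CPM to 90.9 and 66.5 CPM at E14.5, where *Hes1* was highest, and to 232 and 220.2 CPM at E15.5. Over all pools the endothelial list had a median of 153.6 CPM in BVSC and 91.4 CPM in Negative cells, so it does not separate the gates. The marker-checked fit leaves out whole cells without a germ cell profile. The part in the rise of *Hes1* of somatic RNA within the cells kept was not tested. The call stood in each of 7 alternatives and without any one of the 16 pools.

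A sum over cells cannot tell more transcripts per cell from more cells with a transcript. Shares of cells with a UMI were counted after thinning each cell to 50000 UMIs. They rise with the level per cell as well, so they do not separate these readings either. At least 1 *Hes1* UMI was found in 36.5% of BVSC cells at E11.5, 53.7% at E12.5, 78% at E13.5 and 95.7% at E14.5, and without thinning in 70.9, 79, 89.8 and 96.9%. Thinning left out 3 BVSC cells at E11.5 and 6 at E14.5. In the Negative gate the thinned share was already 88% at E11.5. For *Hey1* the thinned share in BVSC cells went the other way, from 94.6% at E11.5 to 55.4% at E14.5 and 33.9% at E16.5 (98, 80.7 and 52.4% without thinning). *Heyl* was seen in 0 of 148 BVSC cells at E11.5, which allows a share of up to 2.03% with a UMI at this depth and sets no limit on cells expressing it, and in up to 20.1% at later time-points, and in 58% of Negative cells at E14.5 (0 to 43.4% and 76.8% without thinning).

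*Hey1* measured 150 and 122.7 CPM at E11.5, 120 and 130 CPM at E12.5, 43.4 and 107.7 CPM at E13.5, 40.8 and 33.6 CPM at E14.5, and 26.1 and 31.1 CPM at E15.5. Its early and later pools did not overlap either, and it fell by 2.19 ± 0.562 on the log2 scale (adjusted p = 0.00581), a call that stood in all 7 alternatives and without any one pool.

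*Heyl* remained low in germ cells throughout. It was at 0 in both pools of E11.5, which allows up to 0.121 CPM in each (3 UMIs, counting error only), at 0.918 and 0.507 CPM at E12.5, at 0.846 and 0.561 CPM at E14.5, and at 3.93 and 3.48 CPM at E15.5, so that the E12.5 and E14.5 pools overlapped. The fitted log2 change of 4.37 ± 1.13 (adjusted p = 0.00656) rests on the pools at 0, and after thinning it was 2.92 and missed the threshold (adjusted p = 0.104).

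The receptors changed in opposite directions. *Notch3* went from 1.94, 0.767, 6.86 and 12.2 CPM in the early pools to 16.2, 20.6, 8.82 and 9.68 CPM in the later ones, with 1 early pool inside the later range and a log2 change of 1.67 ± 0.506 (adjusted p = 0.0175). This call was lost without E11.5 replicate 2 or E12.5 replicate 1, with an adjusted p of up to 0.0888. *Notch1* went from 39.4, 12.9, 11.3 and 11.9 CPM to 1.93, 6.29, 11.8 and 5.42 CPM, with 1 later pool inside the early range, and fell by 1.77 ± 0.593 (adjusted p = 0.0315). Its lowest pools were those of E13.5, at 1.34 and 3.36 CPM, and the thinned share of BVSC cells with a *Notch1* UMI was 56.1% at E11.5, 7.91% at E13.5 and 33.8% at E18.5 (82.8, 16 and 63.6% without thinning). The *Notch1* call was lost without E11.5 replicate 1, E14.5 replicate 1 or either pool of E15.5, with values between -2.26 and -1.22. *Notch2* and *Notch4* had changes of 0.02 ± 0.328 and -0.15 ± 0.978, neither past the threshold.

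*Rbpj* fell from 136.6, 101.03, 66.9 and 85 CPM to 71, 68.6, 47.5 and 44.1 CPM, a log2 change of -0.94 ± 0.297 (adjusted p = 0.0223). Its E12.5 and E14.5 pools overlapped, and 6 of the 16 leave-outs lost the call (E11.5 replicate 1, E12.5 replicate 2 and each pool of E14.5 and E15.5), with values of -1.0 to -0.78. Scaling by RLE size factors in place of TMM raised the median of all genes in this comparison by 0.157 and ended the *Notch1* and *Rbpj* calls. *Jag2* rose without overlap, from 0.525, 0.686, 1.88 and 2.50 CPM to 4.43, 7.41, 16.49 and 5.71 CPM. Its log2 change of 2.58 ± 1.10 missed the threshold (adjusted p = 0.0917), but passed under DESeq2, without the filter and after thinning. *Jag1* lay between 1.86 and 8.15 CPM in these 8 pools, with a change of -0.17 ± 0.656.

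In Negative cells over the same days *Heyl*, *Notch1* and *Notch3* rose and no member fell, where 3.35% of all genes were called (1.9% higher and 1.45% lower). The median log2 change was 0.48 over the 10 genes and 0.03 over all genes. *Hes1* went from 335, 377, 230 and 333 CPM to 150, 391, 231 and 200 CPM, a change of -0.43 ± 0.320 (adjusted p = 0.604). *Heyl* went from 2.90, 0.252, 4.10 and 38.2 CPM to 119.2, 186, 84.3 and 105.7 CPM, with no overlap and a log2 change of 4.30 ± 0.766 (adjusted p = 0.00179), which stood in every alternative and leave-out run.

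*Notch1* rose in Negative cells from 6.48, 6.05, 0.341 and 9.83 CPM to 15.3, 46.1, 31.6 and 37.2 CPM (log2 change 2.48 ± 0.623, adjusted p = 0.0253). *Notch3* rose from 3.92, 3.53, 10.6 and 37.9 CPM to 42.6, 85.3, 27.7 and 33.7 CPM (2.18 ± 0.520, adjusted p = 0.0181). The pools of *Notch1* did not overlap, and those of *Notch3* did through E12.5 replicate 2. Both calls were lost without either pool of E11.5, without E12.5 replicate 1 or without E14.5 replicate 2, and that of *Notch1* also without E15.5 replicate 1 (adjusted p of up to 0.131 and 0.132). The *Notch3* call was also lost in marker-checked cells (1.93, adjusted p = 0.0541).

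Interstitial-like cells made up 13.3, 26.1, 58.3 and 62.5% of the early and 38.3, 97.9, 61.7 and 37.8% of the later Negative pools, and the part of this makeup in the change was measured only within that class. Among interstitial-like cells alone, *Heyl* stood at 6.36 and 62.4 CPM at E12.5 and between 96.4 and 210 CPM at E14.5 to E15.5. *Notch1* stood there at 0.530 and 8.50 CPM at E12.5 and between 13.1 and 47.8 CPM at E14.5 to E15.5. In neither gene did the 2 early and 4 later pools overlap in this class. *Notch3* did overlap there, at 15.4 and 59.1 CPM at E12.5 and at 76.1, 83.97, 43.4 and 32.04 CPM at E14.5 to E15.5. *Hes1* stood at 319 and 449 CPM and then between 226 and 398 CPM.

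The difference between the gates was tested directly as an interaction, which called 2 of the 10 genes where 7.48% of all genes were called (3.55% higher and 3.93% lower). *Hes1* changed by 2.91 ± 0.462 more in BVSC than in Negative cells on the log2 scale (adjusted p = 0.000232). *Notch1* changed by 4.24 ± 0.860 less (log2 difference -4.24, adjusted p = 0.00232). Both calls stood in all 7 alternatives and without any one of the pools, and with the pool as a block the values were 3.00 and -4.56. *Notch1* thereby crossed over between the gates. It was higher in BVSC than in Negative cells in all 4 pools of E11.5 to E12.5, and lower in all 6 pools of E13.5 to E15.5. At E17.5 it was again higher in BVSC cells in both pools (18 and 16.2 against 13.496 and 10.9 CPM), while at E16.5 and E18.5 it was lower in all 4. *Heyl* and *Notch3*, which rose in both gates, had differences of 0.07 and -0.51 that were not called.

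**Figure D2:**
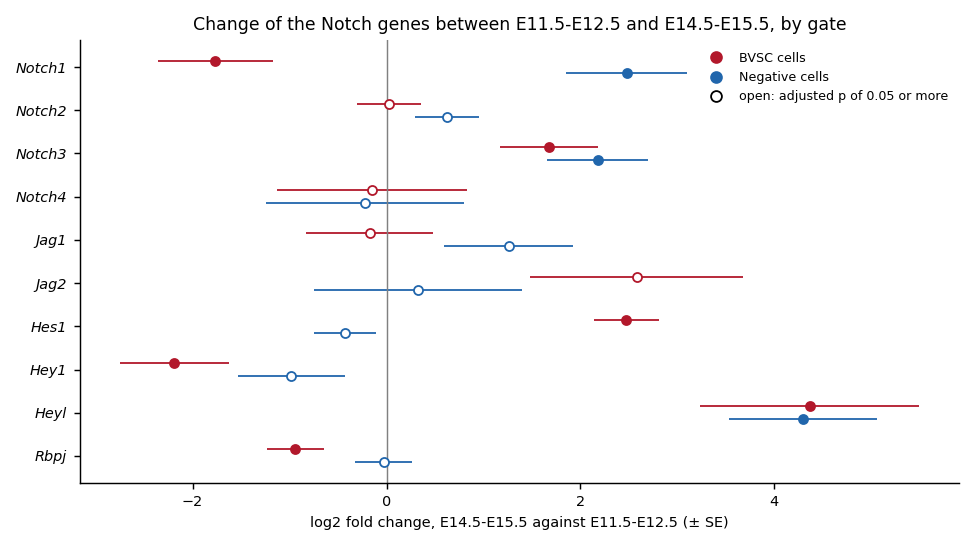
Log2 fold change with its approximate standard error of each Notch gene from E11.5 to E12.5 (4 pools) to E14.5 to E15.5 (4 pools), in BVSC cells (red) and Negative cells (blue), with filled points for an adjusted p under 0.05. *Notch1* lies at -1.77 in BVSC and 2.48 in Negative cells, and *Hes1* at 2.47 and -0.43.

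Later in fetal life, the called changes in germ cells were under 1 on the log2 scale and depended on the scaling. From E14.5 to E15.5 to E16.5 to E18.5, a comparison that shares its earlier pools with the one above, 3 genes were called in BVSC cells, all lower, against 35.4% of all genes (19.8% higher and 15.7% lower). *Hes1* ran from 65.7 to 131.3 CPM in the 6 later pools with a median of 104.2 and fell by 0.80 ± 0.288 (adjusted p = 0.0325). It was at its lowest at E16.5, with 65.7 and 66.7 CPM, and at 131.3 and 127.5 CPM at E18.5. *Notch2* fell by 0.86 ± 0.295 and *Rbpj* by 0.86 ± 0.265 (adjusted p = 0.0257 and 0.0152).

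The median log2 change was 0.22 over the 10 genes and 0.53 over all genes, the latter higher by 0.36 under RLE size factors, where the 3 values were -0.42 for *Hes1*, -0.49 for *Notch2* and -0.47 for *Rbpj* and none was called. None of the 3 was called under DESeq2 (-0.42, -0.49 and -0.47) or after thinning (-0.55, -0.44 and -0.52) either, and *Hes1* was not called in marker-checked cells (-0.67, adjusted p = 0.0924). *Notch1* had a change of 0.97 ± 0.542 (adjusted p = 0.158) and was instead called higher under DESeq2 (1.34, adjusted p = 0.0272) and after thinning (1.33, adjusted p = 0.0203). None of the 10 genes was called when the BVSC cells of E17.5 replicate 1 and E18.5 replicate 2 were left out, a choice made after seeing the data. Single leave-outs kept the calls of *Hes1* and *Notch2* in 8 of 16 runs and that of *Rbpj* in 12. *Jag2* ran from 9.54 to 31.5 CPM with a median of 16.4 in these pools (change 0.90 ± 0.965), and *Hey1* from 12.7 to 35.6 CPM with a median of 17 (-1.15 ± 0.486, adjusted p = 0.0640). *Notch4* reached 16.4 CPM in BVSC and 27.7 CPM in Negative cells of E18.5 replicate 2, its highest levels in the embryonic pools.

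In Negative cells over the same interval, which also shares its earlier pools with the comparison above, *Notch3* was the one member called (-1.67 ± 0.450, adjusted p = 0.0421), against 2.6% of all genes (1.93% higher and 0.665% lower). It ran from 1.82 to 30.9 CPM in the later pools with a median of 16.6. The call was kept in 3 of the 16 leave-out runs, with values from -2.10 to -1.34. The lowest *Notch3* levels, 1.82 and 7.41 CPM, were those of the E17.5 pools, where Sertoli-like cells were 69.6 and 54.2% of the Negative gate.

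The somatic classes held the Notch genes unevenly. These classes come from transcripts of the same cells, so their levels are a description. In interstitial-like cells of the Negative gate *Heyl* averaged 113.4 ± 61.4 CPM and *Notch3* 43.2 ± 23.8 CPM (SD over 11 pools with at least 10 such cells), while in Sertoli-like cells they averaged 12.3 ± 10.3 and 3.14 ± 2.76 CPM (6 pools). *Hes1* averaged 378 ± 137.1 CPM in interstitial-like and 103.01 ± 76.5 CPM in Sertoli-like cells. *Notch2* was close in both, at 73.4 ± 32.5 and 53.9 ± 24.2 CPM. *Jag1* was at 91 CPM over the 39 Leydig-like cells, against 34.5 CPM over the interstitial-like and 12.6 CPM over the Sertoli-like cells. The 6 endothelial-like cells held 255 CPM of *Notch1*, 107.5 CPM of *Notch4*, 194 CPM of *Jag1*, 124.2 CPM of *Jag2*, 261 CPM of *Hey1* and 646 CPM of *Hes1*, each above its level over the interstitial-like, Sertoli-like or Leydig-like cells.

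**Figure D3:**
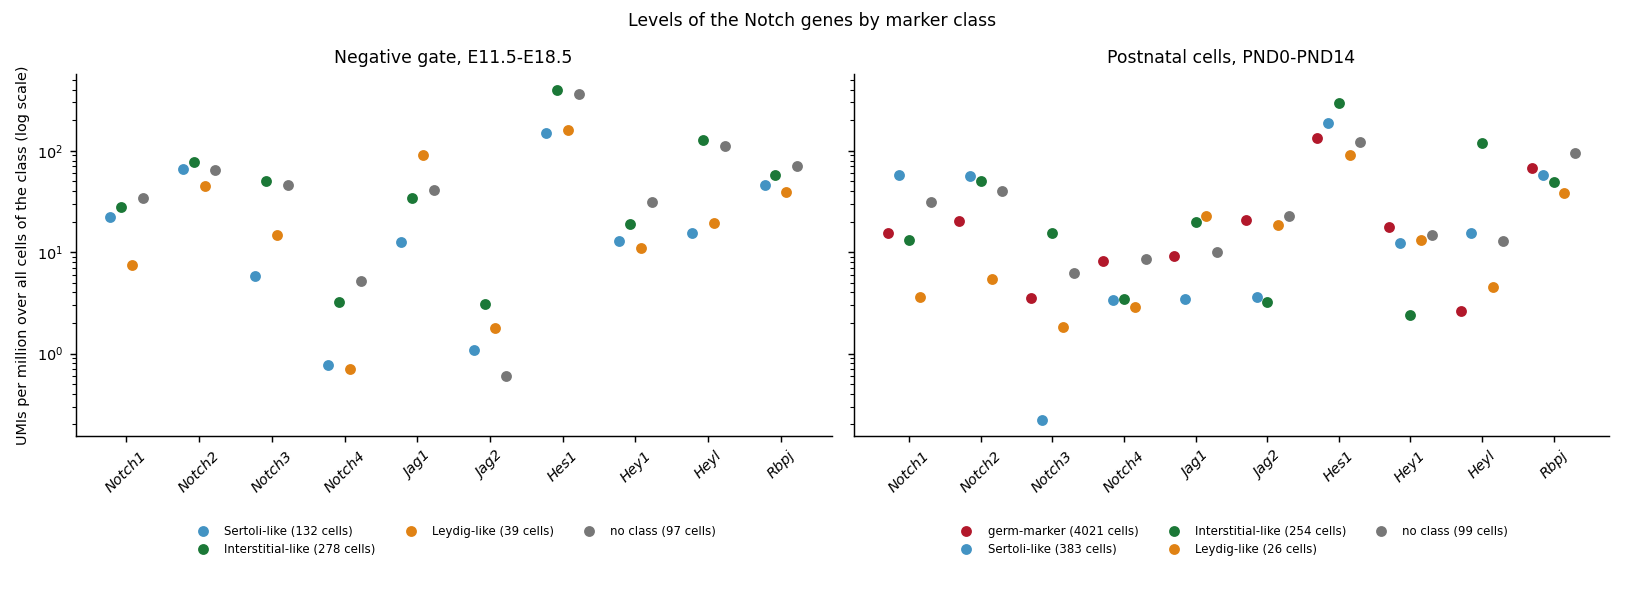
Levels of the Notch genes in CPM over all cells of a marker class (log axis) in the Negative gate at E11.5 to E18.5 (left) and in postnatal cells at PND0 to PND14 (right), 1 point per class, with the number of cells in the legend. *Heyl* and *Notch3* are highest in interstitial-like cells in both windows, at 128.9 and 50.5 CPM before and 119.1 and 15.46 CPM after birth.

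After birth, 4021 of the 4788 cells were germ-marker cells and 665 somatic-marker cells, the latter in 16 pools with at least 10 of them. In germ cells *Heyl* remained near 0, as before birth, and *Jag2*, *Hey1*, *Notch4*, *Rbpj* and *Jag1* were the members with higher medians in germ than in somatic cells. *Heyl* ran from 0.544 to 4.79 CPM over the 24 germ cell pools (median 2.68) and from 0 to 140.6 CPM over the 16 somatic ones (median 55.6). *Jag2* ran from 4.99 to 42.3 CPM in germ and from 0.326 to 8.98 CPM in somatic pools, with medians of 19 and 1.74 CPM. *Hey1* had medians of 17.54 and 3.82 CPM and *Notch4* of 7.83 and 1.10 CPM in germ and somatic pools. The medians of *Rbpj* (65.6 and 50.3 CPM) and *Jag1* (9.16 and 7.41 CPM) lay closer together, with ranges that overlapped. *Notch2* lay on the other side, with medians of 21.4 and 49.3 CPM. The classes rest on transcripts of the same cells, so none of these differences was tested.

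The test over time in germ cells compared PND0 to PND2, PND5 to PND8 and PND10 to PND14, and both comparisons share the pools of PND5 to PND8. From PND0 to PND2 to PND5 to PND8, when prospermatogonia return to the cycle and *Mki67* rose by 2.24 ± 0.263 (adjusted p = 5.04e-07), *Notch2* and *Rbpj* were called higher and *Notch1* lower, where 42.4% of the 26146 genes tested were called (17.3% higher and 25.1% lower). The median log2 change was -0.03 over the 10 genes and -0.44 over all genes. *Notch1* went from between 14.48 and 32.2 CPM (median 20.7, 6 pools) to between 7.14 and 19.1 CPM (median 11.4, 8 pools), a log2 change of -0.58 ± 0.236 (adjusted p = 0.0487). *Rbpj* went from a median of 54.5 to one of 68.2 CPM (0.65 ± 0.183, adjusted p = 0.00619). *Notch2* had medians of 22 and 21.9 CPM, and means of 20.7 ± 8.05 and 23.8 ± 6.19 CPM (SD, 6 and 8 pools), with both pools of PND0 low at 11.6 and 11.99 CPM. Its log2 change after TMM scaling was 0.63 ± 0.212 (adjusted p = 0.0179).

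Under RLE size factors, where the median of all genes was lower by a further 0.36, *Notch2* and *Rbpj* had changes of 0.26 and 0.27 and were not called. Neither was called under DESeq2, and *Notch2* was not called after thinning either. *Hes1* went from a range of 121.3 to 245 CPM (median 198) to one of 79.9 to 165 CPM (median 109.1), with a change of -0.40 ± 0.217 (adjusted p = 0.146) that was called, at -0.77, under RLE size factors. It was also called lower under DESeq2 and after thinning. The *Notch1* call was kept in 11 of 24 leave-out runs (values of -0.91 to -0.30) and lost without the pools of PND8 and without the filter on low counts. That of *Notch2* was kept in 15 runs (0.38 to 0.74), and that of *Rbpj* was lost without either pool of PND1 or without PND2 replicate 1 (0.45 to 0.69 over all runs). *Notch3* was at 14.2 CPM in both germ cell pools of PND0 and at 1.51 to 7.24 CPM from PND1 to PND8, and its change was -1.04 ± 0.429 (adjusted p = 0.0523), called at -1.43 under RLE size factors. It was also called under DESeq2, after thinning and with at least 20 cells per sum.

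From PND5 to PND8 to PND10 to PND14, *Jag2* rose in germ cells and was the one member called, against 11.6% of all genes (7.75% higher and 3.84% lower), with medians of -0.26 over the 10 genes and 0.09 over all genes. It ran from 8.33 to 29 CPM in the earlier pools (median 13.7) and from 19.7 to 42.3 CPM in the later ones (median 32.3), with a log2 change of 1.10 ± 0.314 (adjusted p = 0.0212). The overlap came from the pools of PND8, at 26.2 and 29 CPM. The lowest level of *Jag2* after birth was that of PND4, at 4.99 and 8.58 CPM. The call was lost without PND10 replicate 2, PND12 replicate 1 or PND8 replicate 1 (0.94 to 1.17 over all runs, adjusted p of up to 0.0805). The paper places spermatogonial differentiation and then meiosis from PND7 onwards, and part of the PND14 cells were sorted on DNA content. Changes in the mix of germ cells and in collection cannot be told apart from time in this comparison.

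**Figure D4:**
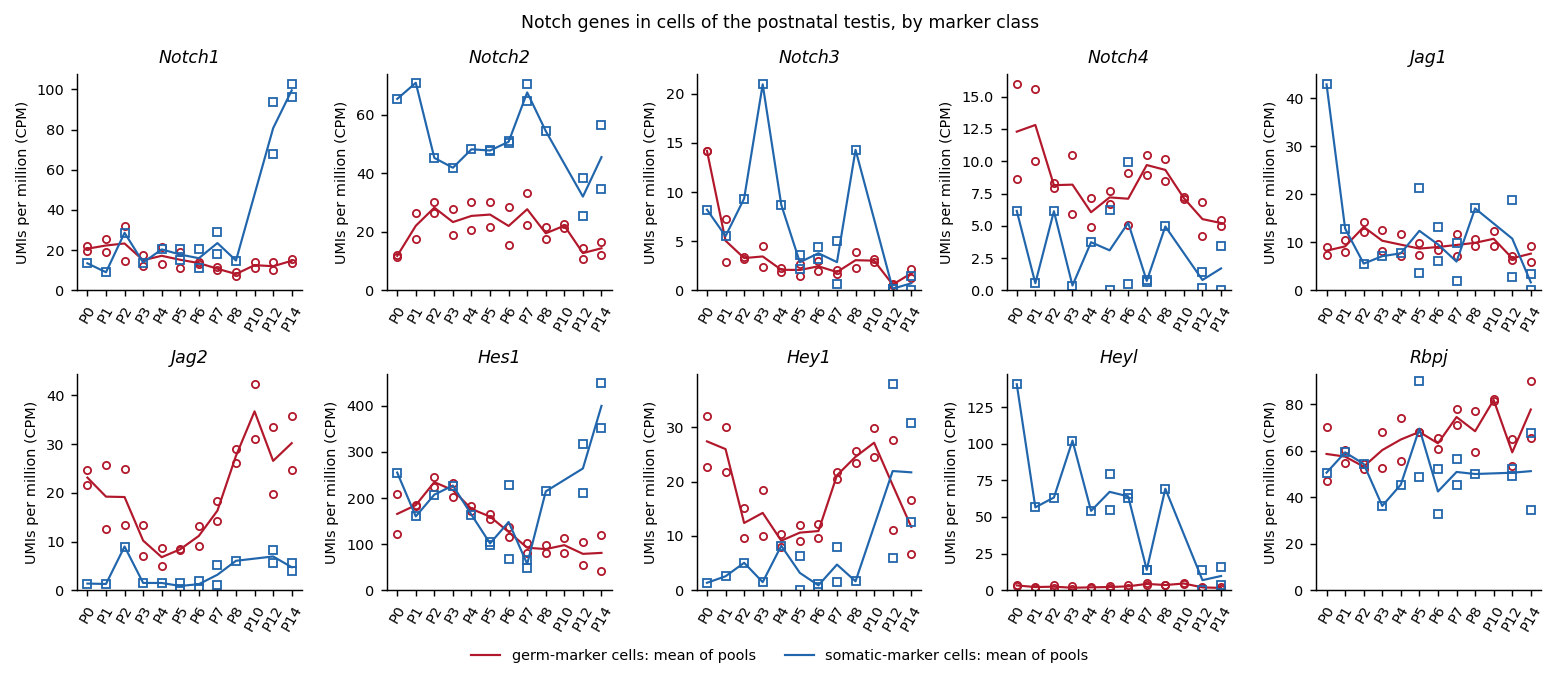
Levels of the 10 Notch genes in CPM (y axes start at 0 and differ between panels) at PND0 to PND14, written P0 to P14, in germ-marker cells (red circles) and somatic-marker cells (blue squares), 1 point per pool and a line through the pool means. *Jag2* in germ cells falls to 4.99 and 8.58 CPM at PND4 and reaches 31.1 and 42.3 CPM at PND10, and *Heyl* in germ cells stays under 5 CPM.

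In somatic-marker cells from PND0 to PND2 to PND5 to PND8, no member was called by edgeR (2.52% of all genes, 0.761% higher and 1.76% lower) or by DESeq2, with medians of -0.35 over the 10 genes and -0.05 over all genes. *Hes1* was the 1 member with an unadjusted p under 0.05, with values of 255, 160 and 207 CPM before and 48.1 to 229 CPM after (median 98.1, 7 pools), a change of -0.83 ± 0.278 (adjusted p = 0.117). It was called without the filter on low counts and without the pools of PND8 (-1.11, adjusted p = 0.0249). The somatic pools of PND12 and PND14, in which Sertoli-like cells prevailed, held 67.7, 93.7, 96.1 and 102.8 CPM of *Notch1*, against 9.0 to 29.1 CPM in the somatic pools up to PND8. Sertoli-like cells also prevailed in the somatic pools of PND6 (11.3 and 20.6 CPM) and PND7 (17.9 and 29.1 CPM). The Sertoli-like mean below joins the earlier and the later ages. Over all postnatal pools with at least 10 such cells, *Notch1* averaged 50.1 ± 39.3 CPM in Sertoli-like (12 pools) and 11.2 ± 4.24 CPM in interstitial-like cells (10 pools), and *Hes1* ran from 27.8 to 460 CPM in Sertoli-like cells.

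The other genes of the pathway were followed with a list of 50, of which 49 were tested in the embryonic and 50 in the postnatal cells. Between the gates, 8 of them were higher and 24 lower in BVSC cells, against 24.2 and 22.9% of all genes, with a median of -0.60 against 0.54 over all genes. *Dll3*, a ligand relative that acts inside the cell, was higher by 3.74 ± 0.354, *Mfng*, a Fringe glycosyltransferase that modifies receptors, by 2.40 ± 0.415, and *Neurl1a*, a ubiquitin ligase for ligands, by 1.69 ± 0.270. *Dlk1*, a non-canonical ligand, was lower by a log2 difference of -4.28 ± 0.269, and *Dtx4* and *Dtx3*, Deltex ubiquitin ligases, by -3.58 ± 0.314 and -3.0 ± 0.207. Of the 9 proteases that cut receptors, 6 were lower and none higher, and of the 5 glycosyltransferases 4 were lower and *Mfng* higher.

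At entry into arrest, 7 of the 49 rose and 4 fell in BVSC cells, close to the 14.4 and 8.87% of all genes (median 0.05 against 0.25). *Dtx1* rose by 3.78 ± 0.873, *Mfng* by 3.58 ± 0.800 and *Dlk1* by 2.25 ± 0.524. *Hdac1*, a histone deacetylase of RBPJ corepressor complexes, fell by 1.55 ± 0.183 and *Rfng*, a Fringe glycosyltransferase, by 1.17 ± 0.362. *Mfng* stood at 0.888 to 1.54 CPM in the 4 early pools, at 8.73 to 23.7 CPM in the 4 later ones and at 39.7 to 70.5 CPM in the 6 pools of E16.5 to E18.5. Into E16.5 to E18.5, 8 rose and 9 fell, against 19.8 and 15.7% of all genes (median 0.02 against 0.53), among them *Dlk1*, up by 3.46 ± 0.499 to between 56.3 and 144.8 CPM, and *Dtx4*, up by 3.43 ± 0.594. In these same BVSC pools summed interstitial markers were 75.4 to 440 CPM, above the 5.73 to 51.7 CPM of E14.5 to E15.5, and *Dlk1* stood at 72.4 to 571 CPM in the Negative cells of E16.5 to E18.5. The part of somatic RNA in these rises was not tested. *Poglut1*, which glycosylates receptors, fell by 1.93 ± 0.334, and 4 of the 6 corepressors fell and none rose.

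In Negative cells at E14.5 to E15.5, 2 of 49 rose, *Dtx1* by 5.02 ± 1.03 and *Dtx4* by 2.79 ± 0.605, and none fell. Of all genes 1.9% were called higher and 1.45% lower. Into E16.5 to E18.5 edgeR called none, where it called 2.6% of all genes. The interaction called *Dtx2* (1.18 ± 0.355), *Rfng* (-1.68 ± 0.511) and *Hdac1* (-1.54 ± 0.255), against 7.48% of all genes. In postnatal germ cells 11 of 50 rose and 7 fell by PND5 to PND8, against 17.3 and 25.1% of all genes (median 0.00 against -0.44), with *Poglut1* (1.69 ± 0.282), *Hes5* (1.65 ± 0.383) and *Maml1* (1.19 ± 0.320) the highest and *Dtx4* (-1.85 ± 0.483), *Dtx3* (-1.75 ± 0.337) and *Neurl1a* (-1.40 ± 0.366) the lowest. By PND10 to PND14, 5 rose and none fell, against 7.75 and 3.84% of all genes (median -0.03 against 0.09), with *Dtx3* (2.23 ± 0.340), *Dll3* (2.01 ± 0.307) and *Mib2* (1.26 ± 0.362) the highest. *Dll3* went from 9.27 to 34 CPM to between 30.1 and 110 CPM, and here too time cannot be told apart from the mix of germ cells and their collection. In somatic-marker cells 1 rose and 2 fell, against 0.761 and 1.76% of all genes, the latter *Neurl1a* (-2.25 ± 0.506) and *Cir1* (-0.77 ± 0.191), a corepressor bound by RBPJ.

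The genes whose log2(CPM + 1) followed that of *Hes1* most closely over the 16 BVSC pools, among genes with a mean of at least 10 CPM, were *Tnnt1* (Pearson r = 0.956), *Socs1* (0.955), *Rasd2* (0.949), *Eri3* (0.945) and *Cbr3* (0.942). The pools share their time-points and libraries, so these values are a description. *Tnnt1*, a troponin gene, averaged 32.7 CPM at E11.5 to E12.5, 189 CPM at E14.5 to E15.5 and 103.98 CPM at E16.5 to E18.5, the same order of periods as *Hes1* (22.6 ± 13.46, 132.5 ± 38.8 and 99.9 ± 29.1 CPM). *Socs1*, an inhibitor of cytokine signalling, averaged 4.97, 20.1 and 13 CPM over these periods.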

How the data were processed

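Single cells had been picked into barcoded lysis buffer and sequenced from the 3′ end in libraries of many cells. The authors separated cells by barcode with UMI-tools and seqtk, aligned reads to mm10 with STAR, assigned them with featureCounts and counted UMIs (base calling by CASAVA 1.8, per the submitters' processing notes). The deposited values are raw UMI counts of 31053 genes in 13032 cells, with a deposited table of the time-point, replicate, genotype and library of each cell. The GEO labels name only the libraries, so groups come from that table and the gate from the cell names.

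Of 8016 cells at the time-points used, 6880 were wild-type and 6723 passed the study's filter of more than 2000 genes and 10000 to 1000000 UMIs. They came from 78 of the 147 libraries, and 0 pairs of library and cell barcode were repeated. The median was 252924 UMIs per cell. The 5016 cells of other time-points and 32 E11.5 cells positive for the *Blimp1* reporter alone were not used. No doublets were called, since cells were picked singly. Counts were summed per pool and cell group with at least 10 cells, giving 72 sums (11046661 to 114569471 UMIs for postnatal germ cells and 777950 to 14032300 for somatic ones). Postnatal cells were classed by germ, Sertoli, interstitial, Leydig, endothelial and blood markers. A class needed a score of at least 0.3 and a margin of 0.1 over the next, and 140 postnatal cells lay near these limits, 99 had no class and 3 were blood cells. The classes are the ones rebuilt here and not the authors' clusters.

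Sums were fitted with edgeR 4.0.16 (R 4.3.3, TMM, filterByExpr, quasi-likelihood F test) with 1 mean per time-point and group, over all 23322 embryonic or 26146 postnatal genes that passed the filter, with Benjamini-Hochberg adjustment at 0.05. Every adjusted p in the text is from this test unless another tool is named, and fold changes are log2. The ± beside a log2 value is that value's size over the square root of its F statistic, an approximate standard error. It is unreliable for *Heyl*, which has pools at 0. Its interaction had 0.130, against 1.13 for the change in BVSC and 0.766 for that in Negative cells. This departs from the study, which tested single cells. The fit was tested on simulated counts. Leave-out fits kept the dispersion trend of all sums. BVSC and Negative cells of a pool share its time-point and replicate, so the pool pairs them. Whether they shared a digest is not given in the sources used here. Deviations from the group means correlated between the gates by 0.117, 0.128, 0.0957, -0.00682, -0.00113, -0.0136, 0.152 and 0.143 from E11.5 to E18.5. Alternatives were DESeq2 1.42.0, RLE size factors, no filter, at least 20 cells per sum, cells thinned to 50000 UMIs, cells checked by markers, a class margin of 0.2, no PND8 pools, a replicate block and each pool left out in turn. Members, lists and tests were chosen with earlier results of these data known. The text names all members, the 3 pathway genes with the largest rise and fall past the threshold in each comparison at a mean log2 CPM of at least 3, 4 check genes, and the 5 genes most like *Hes1*, except 1 pathway gene that is not reported here. CPM values count UMIs, so counting error is small for high genes, but a gene at 0 may still be present at a low level. Gene positions are from GENCODE M21.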

Additional observations from a re-analysis of the deposited data

Results flagged for a closer look

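The change of *Hes1* and of *Notch1* at entry into arrest differed between the gates by the interaction test, by 2.91 and -4.24 on the log2 scale.

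Of 120 groups of 4 to 10 pools examined, 11 held a pool whose gap to the next one was large for the range of its group by Dixon's criterion. Its rate of about 1 in 20 holds for like, normally distributed values. These groups join several time-points, so that rate does not apply here. Each flagged pool was the highest of its group. In BVSC cells these were *Notch1* at E11.5 replicate 1 (39.4 CPM, the other 3 early pools 11.3 to 12.9), *Notch2* at E14.5 replicate 2 (35.3 CPM, others 14.4 to 16.3), *Notch4* at E18.5 replicate 2 (16.4 CPM, others 3.03 to 7.26) and *Heyl* at E17.5 replicate 1 (12.4 CPM, others 1.71 to 3.84). The last 2 pools are those in which fewer cells had a germ cell profile. In Negative cells they were *Jag1* and *Heyl* at E12.5 replicate 2 (62.8 CPM against 6.49 to 11.1, and 38.2 CPM against 0.252 to 4.10) and *Notch4* and *Hey1* at E18.5 replicate 2 (27.7 CPM against 0.519 to 8.76, and 32.1 CPM against 1.298 to 12.48). In somatic-marker cells they were *Notch3* at PND8 replicate 1 (14.3 CPM, others 0.677 to 5.06) and at PND14 replicate 1 (1.43 CPM, others 0 to 0.186), and *Rbpj* at PND5 replicate 1 (90.2 CPM, others 32.7 to 56.5).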

How the results depend on the processing

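Of the 26 calls of a member among 90 tests, 15 were kept in every alternative and 11 of them also without any one pool. No result changed direction past the threshold. The number of members called from E14.5 to E15.5 to E16.5 to E18.5 in BVSC cells was 3, all lower, but 0 with RLE size factors, 1 with DESeq2 and 1 after thinning (*Notch1*, higher, and none of the 3), and 0 without the 2 BVSC sums of fewer germ cell profiles. In Negative cells over the same interval it was 1, but 0 with RLE size factors, after thinning or in marker-checked cells, and 3 without the filter. From PND5 to PND8 to PND10 to PND14 it was 1 in germ cells, but 2 with DESeq2 or at least 20 cells per sum, and in somatic cells it was 0, but 1 without the filter or without PND8. The cause was not tested. Over all genes, calls in Negative cells went from 782 to 1877 (DESeq2) and 1633 (no filter) at E14.5 to E15.5, and from 606 to 1601 (DESeq2), 1371 (no filter), 297 (thinned) and 376 (marker-checked) after it. They went from 1745 to 3449 (DESeq2) for the difference between gates, and from 659 to 1747 (DESeq2) and 1148 (at least 20 cells) in somatic cells after birth.

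Without single pools, genes called ranged from 10328 to 10823 between the gates, where the number with all pools was 11003, and from 3520 (without E12.5 replicate 1) to 5475 and from 4344 (without E15.5 replicate 2) to 8508 in the earlier and later BVSC comparisons (5421 and 8267). They ranged from 288 (without E12.5 replicate 1) to 862 and from 199 (without E16.5 replicate 1) to 1155 (without E13.5 replicate 2) in the Negative ones, from 768 (without E12.5 replicate 1) to 1882 for the difference, and from 8450 to 11644, 1707 (without PND12 replicate 2) to 4131 and 257 (without PND0 replicate 1) to 1136 (without PND12 replicate 2) in the 3 postnatal ones (11080, 3029 and 659). The count moved by over 1.5 times in 0, 1, 2, 5, 9, 6, 0, 3 and 4 of these runs. Members called ranged, in the same order, from 6 to 8, 4 to 6, 0 to 3, 1 to 3, 0 to 1, 2 to 2, 1 to 4, 0 to 2 and 0 to 1.

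The share of called genes that were higher depended on the scaling. It was 55.8% in BVSC cells at E16.5 to E18.5 but 70.9% with DESeq2, 75.9% with RLE and 66.8% thinned. For the difference between the gates it was 47.4% but 67.2, 64.9 and 63.1%. In germ cells it was 40.8% but 26.3% with DESeq2 and 20.02% with RLE at PND5 to PND8, and 66.9% but 53.9% with DESeq2 and 55.5% thinned at PND10 to PND14. In somatic cells it was 30.2% but 46.2% with DESeq2, 49.4% with at least 20 cells and 43.5% thinned.

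With the pool as a block, 10572 genes and 8 members were called between the gates (*Jag2* added, 1.40) and 2175 genes and 2 members for the difference. For the other comparisons the replicate numbers name no shared source, and with the number as a block 5248, 7960, 736, 583, 11213, 2937 and 720 genes were called, with no change in a member's call. Depth limits the members with few UMIs in single sums, among them *Notch4*, *Jag2* and *Heyl*, which were at 0 in at least 1 of them. *Notch3* and *Jag1* were at 0 in the somatic sum of PND14 replicate 2, and *Hey1* in that of PND5 replicate 2. In their lowest Negative sum *Notch1*, *Notch3* and *Hey1* had 1, 7 and 5 UMIs.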
